A study of Mus musculus with 86 samples.

Results

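The neurite enrichment of 10 mouse RNAs was examined in neuronal cell lines that keep or lose TDP-43: Agpat4, Dhx16, Galnt7, Gcc2, Lhfpl4, Mtx3, Peli3, Slc35b3, Snrnp48 and Srcin1. The 10 were taken from 53664 genes in the files on measured values: they were chosen by their neurite enrichment, which was higher in the knockouts of both cell lines, and because none of them is among the 16 genes whose RNA was cut into the reporter library of the study. Their behaviour in the knockouts is therefore the reason they are shown and is described without a test. All 10 passed the filter on low counts in each of the 3 experiments, which left 17343 genes in CAD cells, 17912 in N2A cells and 13940 in the CAD cells with a TDP-43 transgene.

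Cells were grown on porous membranes and separated into soma and neurite fractions, and polyadenylated RNA of each fraction was sequenced in 3 libraries per group. CAD and N2A are mouse neuronal tumour lines. In the knockout experiments, clones whose own Tardbp alleles had been cut by CRISPR carried an HA-tagged TDP-43 transgene that doxycycline turns off, so both genotypes share the cut alleles and the transgene. Wild-type cells received no doxycycline and knockout cells received it for 48 h, at 2 µg/mL by the labels and at a lower dose by the methods of the study. Doxycycline and loss of the transgene cannot be told apart in this design. In the third experiment, CAD cells expressed either wild-type or Q331K TDP-43 from a single-copy transgene that doxycycline turns on, and both genotypes received doxycycline and kept their own Tardbp alleles. The labels call these cells overexpressing, whereas the single copy was designed to replace TDP-43 of the endogenous alleles without raising the total. Nothing in the labels says that the 3 libraries of a group came from separate cultures, so p-values measure only the spread between these libraries, which may be technical.

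The libraries held 25009904 to 32895542 assigned reads in CAD cells, 22726534 to 31911030 in N2A cells and 9783050 to 15870647 in the transgene cells. Within a group the libraries correlated at r of 0.967 to 0.986 across genes, and no pair was identical. Of 7 neuronal markers, 6 reached a mean of 1 TPM (an abundance corrected for transcript length and library total) in every combination of experiment and compartment, with Nefm the exception, and their summed level lay between 372 and 1664 TPM. The astrocyte, microglia, endothelial and oligodendrocyte marker lists summed to at most 12.3 TPM in any library, and the endothelial marker Cldn5 was listed at 0 in all of them. Tardbp reads, which come from the transgene and from any leftover endogenous RNA, were 93.8 ± 4.08 CPM (counts scaled to a common library total; SD, n = 3) in CAD knockout soma against 537 ± 28.6 in wild-type soma, and 169 ± 9.33 against 579 ± 29.2 in N2A soma.

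TDP-43 is an RNA-binding protein of the nucleus and cytoplasm that is lost from the nucleus and aggregates in amyotrophic lateral sclerosis. It binds runs of alternating G and U, in introns, where it represses splice sites, and in 3′ untranslated regions (3′ UTRs), where it can act on the stability and transport of the RNA. Sequences that direct an RNA into neurites also commonly lie in the 3′ UTR, and the localization ratio (LR), the log2 of an RNA's abundance in neurites over soma, measures the result.

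The GU content of the 10 RNAs was not part of their choice. The motif GUGUG, its shifted form UGUGU, and the variant GUAUG were counted with overlaps on the RNA strand of the GENCODE vM21 annotation, build GRCm38. The following windows of 30 bases first show the densest type of site, the long GU repeat. They come from the 5 RNAs with 10 or more motifs within 30 bases of their longest annotated 3′ UTR. A window with a lone motif from the 3′ UTR of Snrnp48, which has 4 in all, follows as a contrast, and last a retained intron of Dhx16. Retained-intron forms not shown here also hold dense sites, with up to 26 motifs within 30 bases in Slc35b3-206 and 10 in Snrnp48-204. Capitals mark the motifs.
Agpat4: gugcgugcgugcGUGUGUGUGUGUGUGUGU
Lhfpl4: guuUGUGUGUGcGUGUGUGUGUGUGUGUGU
Mtx3: acaaaggguguuUGUGUGUGUGUGUGUGUG
Peli3: ugggGUGUGUGUGUGUGUGcGUGUGagaga
Srcin1: auUGUGUGcagccucUGUGUGUGUGUGcac
Snrnp48: cauuggaggguuGUAUGugacagggaaagc
Dhx16-202: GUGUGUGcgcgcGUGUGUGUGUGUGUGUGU
The Agpat4 window lies at chr17:12219317-12219346 on the plus strand, 238 bases after the stop codon of a 566-base 3′ UTR. Lhfpl4 is shown at chr6:113170568-113170597 on the minus strand, 1261 bases into 3768. Mtx3 is shown at chr13:92854342-92854371 on the plus strand, 1448 bases into 5336. Each of these 3 windows is the start of a longer run, since the uninterrupted GU repeat spans 39 bases in Agpat4, 33 in Lhfpl4 and 31 in Mtx3. The Peli3 window, chr19:4929975-4930004 on the minus strand, sits 2294 bases into the 2581-base 3′ UTR of Peli3-201, and the Srcin1 window, chr11:97510216-97510245 on the minus strand, 2269 bases into the 3174-base 3′ UTR of Srcin1-203. The Snrnp48 window is chr13:38227265-38227294 on the plus strand. The Dhx16 window, chr17:35887751-35887780 on the plus strand, is not in a 3′ UTR but in Dhx16-202, a transcript annotated as a retained intron, where the repeat runs on for 37 bases.

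In their longest annotated 3′ UTR, 9 of the 10 RNAs held at least 1 motif, as did 86.39% of 12902 other genes tested in both lines. The density was the more uneven measure. Agpat4 had 77.7 motifs per kb, a density reached by 0.232% of all genes compared, the 10 included, and Lhfpl4 had 40.3 per kb, reached by 0.79%. Srcin1 with 18 per kb, Mtx3 with 16.1 and Peli3 with 13.6 lay within the densest 8% of genes. The other 5 were ordinary: Slc35b3 had 6.95 motifs per kb, Gcc2 5.58, Snrnp48 5.38, Galnt7 3.5 and Dhx16 0 in a 3′ UTR of 123 bases. The median was 10.2 per kb over the 10 RNAs and 4.65 over the other genes, and it was 20.6 over 8 RNAs of the reporter library, a list that leaves out some of its RNAs with a higher LR in the knockouts, such as Fam219a. With the 3′ UTR of the most abundant transcript that has one, in wild-type CAD soma, in place of the longest one the median of the 10 was 5.48 per kb, because Peli3 and Srcin1 were then read on transcripts with 4 and 0 motifs. For Peli3-201 the transcript in the files is 1971 bases long and the annotated one 4110, so its GU site may lie outside the sequence that the reads were matched to.

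**Figure D1:**
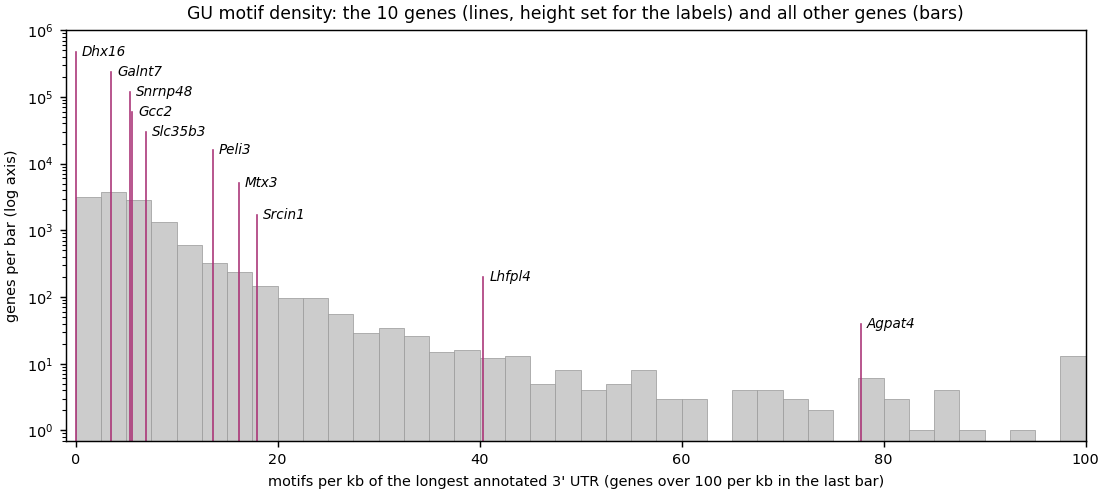
Density of the 3 GU motifs in the longest annotated 3′ UTR, in motifs per kb (x axis), for all other genes tested in both lines (grey bars, number of genes on a log axis) and for each of the 10 genes (lines, whose height only makes room for the labels). Agpat4 and Lhfpl4 stand far to the right, Srcin1, Mtx3 and Peli3 in the upper tail, and the other 5 genes among the bulk.

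Levels of the 10 RNAs differed widely. On the TPM scale, which corrects for transcript length, Dhx16 with 48.8 ± 10.2 TPM, Galnt7 with 41.6 ± 9.44 and Agpat4 with 41.5 ± 10.9 (SD, n = 3) led in wild-type CAD soma and overlapped each other. These are sums over transcripts. For Dhx16 the retained-intron form Dhx16-202 gave 44.6% on average, and protein-coding Dhx16-201 had 22.1 TPM. Gcc2 with 25.3 ± 5.72 and Slc35b3 with 23.7 ± 4.79 followed, then Snrnp48, Srcin1 and Lhfpl4 between 12.9 and 14.5 TPM with overlapping libraries. Mtx3 with 7.65 ± 1.46 and Peli3 with 1.7 ± 0.486 were set apart at the bottom. In wild-type CAD neurites Lhfpl4 led with 43.2 ± 9.53 TPM and stood apart from all others, Dhx16 with 6.31 ± 0.579 TPM came behind Agpat4, Galnt7 and Gcc2, and Mtx3 with 1.89 ± 0.469 and Peli3 with 0.665 ± 0.346 again came last. N2A soma gave Agpat4 with 71.4 ± 6.51 TPM and Dhx16 with 59.6 ± 3.24 as the highest and Peli3 with 2.03 ± 0.252 as the lowest.

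TPM cannot compare compartments here. The median gene had a neurite TPM of 0.294 times its soma TPM in wild-type CAD cells and of 0.387 times in knockouts, a shift of 0.40 on the log2 scale, and the shift was 0.42 in N2A cells and -0.02 between the transgenes. Gene values that compare compartments or genotypes are therefore given in CPM after scaling between libraries (TMM), which puts the median LR difference of all genes between knockout and wild-type at -0.00 in CAD cells and -0.01 in N2A cells. Single transcripts are given in unscaled TPM and as shares of the TPM of their gene. Genotype differences in TPM carry a difference of scale, by which the median soma change of the 10 in CAD cells was -0.25 (log2) in place of 0.02, whereas the shares do not depend on it.

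With TDP-43 present 8 of the 10 RNAs had an LR below 0 in CAD cells, where 48.67% of all genes lay above 0, from -0.88 in Dhx16 to -0.02 ± 0.15 (SE) in Peli3. In wild-type N2A cells the count was also 8, with 48.92% of all genes above 0, from -1.59 in Srcin1 to -0.01 ± 0.28 in Peli3. Lhfpl4 was the neurite RNA of the group, with an LR of 3.52 in CAD and 0.96 in N2A cells, and Gcc2, like Peli3, was evenly spread, with 0.07 and 0.04. In the knockouts 7 of 10 had an LR above 0 in each line, against 50.6% of all genes in CAD and 50.99% in N2A cells. The LR difference between knockout and wild-type had a median of 0.67 in CAD cells, with a range of 0.45 in Galnt7 to 3.77 in Peli3, and a median of 0.82 in N2A cells, with a range of 0.52 in Galnt7 to 1.54 in Peli3.

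These differences are those the choice of the genes rests on. For scale, edgeR's quasi-likelihood test called 0.225% of 17343 genes higher and 0.208% lower in CAD cells at a false discovery rate (FDR) of 0.01, and 0.0893% and 0.0112% of 17912 genes in N2A cells, and 25.6% of the 16200 genes tested in both lines had a difference above 0 in both. At an FDR of 0.05, which 0.404% of genes passed as higher in CAD and 3.13% in N2A cells, 23 genes were higher in both: the 10 described here, 10 of the reporter library, and Tardbp, Zfp839 and 1500004A13Rik. Passing is no test of the 10, since their choice used the same contrast. Nearest inside the threshold were Gcc2, with differences of 0.94 ± 0.13 (SE) in CAD and 0.54 ± 0.16 in N2A cells, and Snrnp48 with 0.50 ± 0.11 and 0.82 ± 0.14. Nearest outside were Ccnl1 with 0.39 ± 0.09 and 0.57 ± 0.12, Syt14 with 0.34 ± 0.08 and 0.37 ± 0.09, and Ston2 with 1.37 ± 0.16 and 0.37 ± 0.12.

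**Figure D2:**
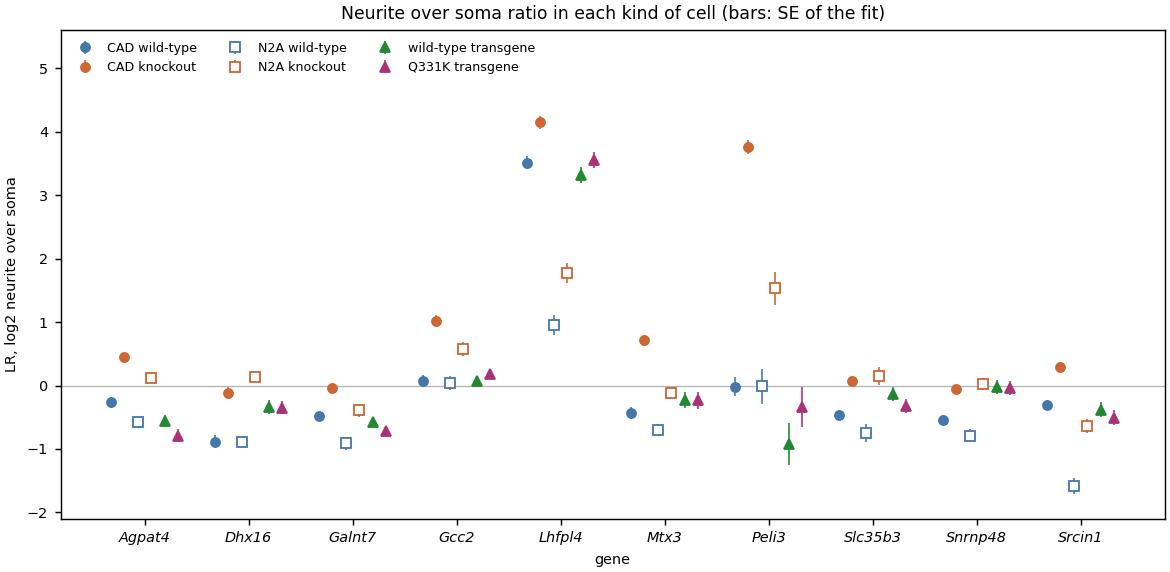
LR (log2 of neurite over soma, with the SE of the fit) of each gene in wild-type and knockout CAD cells (circles), wild-type and knockout N2A cells (squares), and CAD cells with a wild-type or Q331K transgene (triangles). Knockout symbols lie above wild-type symbols in both lines for each gene, by 3.77 for Peli3 in CAD cells, while the triangles of a gene differ by 0.58 for Peli3 and by at most 0.24 for the other 9.

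A higher ratio can come from more RNA in neurites, less in soma, or both, and the 10 RNAs were not alike in this. In neurites every knockout library lay above every wild-type library for 9 of the 10 in CAD cells, a pattern found in 22.6% of all genes, with Galnt7 below (23.9% of all genes). In N2A neurites it was again 9 of 10, against 17.4% of all genes (below, 0 of 10 and 20.2%), with Dhx16 overlapping. Neurites of both lines were above without overlap for 8 RNAs, against 8.25% of genes. Neurite and soma values make up the ratio that the choice used, so the shares of all genes serve for scale only. In CAD soma the knockout libraries lay above without overlap for 4 RNAs (Mtx3, Peli3, Slc35b3 and Srcin1, against 21.5% of all genes) and below for 3 (Dhx16, Galnt7 and Lhfpl4, against 22.5%). In N2A soma they lay above only for Mtx3 (23.3% of all genes) and below for 5 (Agpat4, Dhx16, Galnt7, Slc35b3 and Snrnp48, 18.8%). Sequencing of bulk fractions gives shares of the RNA in each fraction, so less of an RNA per cell and more of the other RNAs cannot be told apart.

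**Figure D3:**
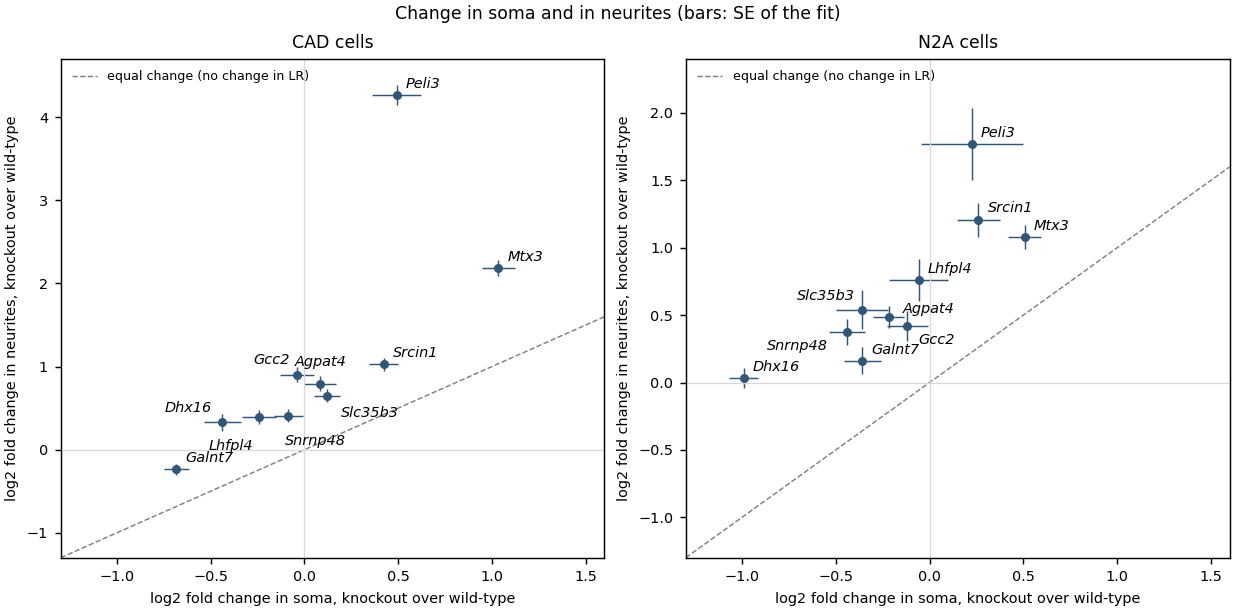
Log2 change of the knockouts over wild-type, in soma on the x axis and in neurites on the y axis, for the 10 genes in CAD (left) and N2A cells (right), with the SE of the fit. All points lie above the dashed line of equal change, Peli3 and Mtx3 far up in CAD cells, and Galnt7 in CAD and Dhx16 in N2A cells at or below a neurite change of 0.1 with their soma change below 0.

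Peli3 encodes a Pellino E3 ubiquitin ligase of Toll-like and interleukin-1 receptor signalling, and it showed the greatest differences of the 10. Its level was 2.12, 2.3 and 1.76 CPM in the 3 wild-type CAD neurite libraries and 34.9, 44.4 and 39.1 CPM in the knockout neurite libraries. Soma libraries held 2.11, 1.91 and 2.21 CPM in wild-type and 3.07, 2.96 and 2.75 CPM in knockout cells. The RNA thus went from a low and even level to one that was 19.2-fold higher in neurites, while soma differed by 1.41-fold. In N2A neurites its levels were 1.3, 1.57 and 1.46 CPM in wild-type and 4.91, 6.29 and 3.59 CPM in knockout cells, a 3.4-fold higher mean without overlap. N2A soma overlapped, with 1.46 ± 0.21 and 1.7 ± 0.528 CPM (SD, n = 3), and counts scaled for transcript length gave a soma change of the opposite sign (-0.67 in place of 0.22 on the log2 scale) and an LR difference of 2.39 in place of 1.54. Both main protein-coding transcripts were higher in CAD neurites. Peli3-202 stood at 0.234 TPM in wild-type and 6.28 TPM in knockout neurites, and Peli3-201 at 0.188 and 2.98 TPM.

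Srcin1 and Lhfpl4 encode synaptic proteins. Srcin1 is an adaptor of dendritic spines that holds Src kinase in check. Its CPM in CAD neurites was 32.4, 33.4 and 29.5 in wild-type and 56, 68.3 and 69.6 in knockout libraries, and in CAD soma 38.7, 38.9 and 40.1 against 55.1, 52.6 and 50. Both compartments were higher without overlap, neurites by 2.04-fold and soma by 1.34-fold. In N2A neurites it had 5.54, 5.57 and 4.16 CPM in wild-type and 11.6, 12.1 and 11.5 CPM in knockout cells, again about 2.31-fold higher by the fit, and in N2A soma the libraries overlapped.

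In both lines Srcin1-203 was the transcript of Srcin1 that was higher in soma and neurites. Srcin1-203, 7054 bases long and the form with the GU-rich 3′ UTR shown above, held 29.8% ± 2.04 of the gene's TPM in wild-type CAD neurites and 71.8% ± 4.44 (SD, n = 3) in knockout neurites. Its level there was 0.909, 1.32 and 1.12 TPM in wild-type and 4.34, 5.47 and 5.27 TPM in knockout libraries. It also held more of the CAD soma, 28.8% ± 1.59 in wild-type against 52.8% ± 4.37 in knockout cells, with 4.15 ± 0.71 and 7.75 ± 0.514 TPM. Srcin1-202, whose 3′ UTR has 74 bases and no motif, stood at 4.84 TPM in wild-type and 2.02 TPM in knockout CAD soma, with no overlap, and Srcin1-201 overlapped there at 4.44 and 3.94 TPM. Srcin1-203 had 0.227, 0.45 and 0.309 TPM in wild-type and 0.698, 1.32 and 1.11 TPM in knockout N2A neurites. In N2A soma it made up 49.1% ± 3.28 of the gene's TPM in wild-type and 69.3% ± 5.77 in knockout cells. Transcript levels are estimates that divide reads among forms sharing exons.

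Lhfpl4 encodes a tetraspan partner of GABA-A receptors at inhibitory synapses. It was already the most neurite-enriched of the 10, with 420, 471 and 370 CPM in wild-type CAD neurites against 36.1, 35.7 and 38.5 CPM in soma. Knockout CAD cells had 493, 589 and 571 CPM in neurites and 31.3, 30.8 and 31.1 CPM in soma, so that neurites were higher and soma lower, both without overlap. In N2A neurites the wild-type libraries held 96.9, 113 and 93.1 CPM and the knockout libraries 199.6, 199.9 and 115 CPM. The last value is that of knockout neurite replicate 3, which also held the lowest level of Diras1, Ksr2 and Wasf3 among the knockout neurite libraries. Without the replicates numbered 3 the LR difference of Lhfpl4 in N2A cells was 0.996 in place of 0.82. Nearly all of its TPM, at least 97.5% in the neurite groups of both lines, came from Lhfpl4-201, the form with 152 motifs in its 3′ UTR.

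Mtx3 encodes a metaxin, a protein of the mitochondrial outer membrane. It was higher in every compartment of both lines without overlap. CAD soma had 16.5, 19.1 and 18 CPM in wild-type and 37.2, 35 and 37.4 CPM in knockout cells, and CAD neurites 14.7, 12.4 and 12.5 against 55.1, 66.3 and 58.2. The differences were thus 2.05-fold in soma and 4.55-fold in neurites, so the ratio and the total both stood higher. In N2A cells the mean was 24.7 ± 0.779 against 35 ± 2.65 CPM in soma and 15.2 ± 1.93 against 32.2 ± 0.816 CPM (SD, n = 3) in neurites. Mtx3-201, the protein-coding form with a 5336-base 3′ UTR, had 55.9% ± 4.29 of the gene's TPM in wild-type and 83.7% ± 6.26 in knockout CAD neurites, and 63.3% ± 3 against 84.9% ± 3.35 in N2A neurites. The retained-intron form Mtx3-202 overlapped between genotypes in CAD soma, at 2.27 and 2.07 TPM.

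Of the 4 genes for membrane lipids and the Golgi, Agpat4 and Gcc2 were higher in neurites with overlapping soma libraries in CAD cells. Agpat4 is an acyltransferase that makes phosphatidic acid. CAD neurites held 37.9, 33.9 and 36.2 CPM in wild-type and 67.8, 60.1 and 59.4 CPM in knockout cells, while CAD soma overlapped at 43.3 ± 5.01 and 45.8 ± 3.45 CPM (SD, n = 3). In N2A cells neurites held 51.4, 50.1 and 47.1 CPM in wild-type and 74.1, 64.2 and 69.9 in knockout cells, and soma was lower, with 75.4, 69.2 and 77.9 against 58.1, 66.7 and 66.5. Its LR difference was alike in size in both lines, at 0.71 ± 0.12 and 0.70 ± 0.12 (SE). The annotation places a processed pseudogene, Tdgf1-ps2, inside the gene on the same strand.

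Gcc2 is a golgin, a coiled-coil tether of the trans-Golgi network. Its CAD neurite levels were 73.2, 86.2 and 74.1 CPM in wild-type and 138, 165 and 134 CPM in knockout cells, 1.87-fold higher. Soma overlapped in both lines, with 74 ± 6.1 and 72 ± 5.67 CPM in CAD and 42.9 ± 2.71 and 39.5 ± 1.83 CPM (SD, n = 3) in N2A cells. N2A neurites held 40.2, 43.8 and 48 CPM in wild-type and 56.5, 70.5 and 49.9 CPM in knockout cells. The gap between the closest libraries was small there, and leaving out replicates numbered 2 or 3 moved the LR difference to 0.31 or 0.71 from 0.54.

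Galnt7 is a GalNAc transferase of O-glycosylation in the Golgi, and in both lines its soma level was lower. CAD soma had 89.4, 101 and 102 CPM in wild-type and 57.4, 61.9 and 62.8 CPM in knockout cells. CAD neurites were also lower, with 71.2, 64.8 and 73.2 against 61.6, 57.5 and 58.8 CPM, but by less. In N2A cells soma was lower, with 56.8, 65.7 and 70.8 against 45.8, 49.5 and 55.4 CPM, and neurites were higher by 1.12-fold, with 34.2 ± 3.46 and 38.3 ± 0.616 CPM (SD, n = 3) and closest libraries of 37.4 and 37.9. On the TPM scale CAD neurites of the 2 genotypes had the same mean, 8.84 and 8.81 TPM. Several short genes of both strands lie inside Galnt7 in the annotation.

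Slc35b3 carries the sulfate donor PAPS into the Golgi. CAD neurites held 12.9, 12.6 and 12.9 CPM in wild-type and 21.2, 20 and 19.1 CPM in knockout cells, 1.57-fold higher, and CAD soma 17.6, 16.8 and 18.3 against 19.5, 19 and 18.8 CPM. In N2A neurites it had 3.69, 4.29 and 4.67 CPM in wild-type and 5.54, 5.67 and 7.23 in knockout cells, with soma lower at 7.12 ± 0.733 and 5.55 ± 0.157 CPM (SD, n = 3). The mix of Slc35b3 transcripts differed between the CAD genotypes. Slc35b3-203, a retained-intron form, stood at 4.5, 5.88 and 6.42 TPM in wild-type and 0.664, 0.78 and 1.36 TPM in knockout soma, and at 1.66 ± 0.581 and 0.0713 ± 0.052 TPM in neurites. The protein-coding Slc35b3-202 went the other way, with 1.65 ± 0.927 against 4.29 ± 0.291 TPM in soma, as did Slc35b3-209 with 0.531 ± 0.197 against 3.57 ± 2.03 TPM. Other protein-coding forms did not share this. In CAD soma Slc35b3-205 (1.15 against 0.231 TPM) and Slc35b3-207 (1.8 against 0.734) were lower without overlap, and Slc35b3-208 overlapped at 6.6 and 4.9 TPM. In N2A soma Slc35b3-202, Slc35b3-203 and Slc35b3-209 overlapped between genotypes. When only protein-coding transcripts were counted, a choice made after seeing these data, the CAD soma change of the gene was 0.65 in place of 0.12 and its CAD neurite change 1.28 in place of 0.65 (log2), and with length-scaled counts the soma change was -0.17 and the LR difference 0.35 in place of 0.53. In N2A cells protein-coding transcripts alone gave an LR difference of 1.37 in place of 0.90. A lincRNA, Gm26514, overlaps Slc35b3 on the same strand and 5033403F01Rik on the other.

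Dhx16 and Snrnp48 encode splicing proteins, an RNA helicase that readies the spliceosome for catalysis and a component of the minor spliceosome. Dhx16 was lower in soma, with 56.5, 58.8 and 69.7 CPM in wild-type and 46.7, 45.5 and 44.3 CPM in knockout CAD cells. In N2A soma it had 74.8, 78 and 72.7 CPM in wild-type and 34.7, 39.1 and 39.6 CPM in knockout cells, a 1.99-fold lower level and the greatest soma change of the 10 in N2A cells. Its CAD neurites were higher, with 39.4, 32.9 and 28.2 against 40.6, 40.8 and 44.4 CPM, and its N2A neurites overlapped at 40.4 ± 1.18 and 41.3 ± 2.37 CPM (SD, n = 3). In N2A cells the higher ratio of Dhx16 therefore stood on the soma value. Leaving out replicates numbered 3 put the CAD difference at 0.49 in place of 0.76.

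The retained-intron transcript Dhx16-202, whose GU repeat is printed above, was much lower in knockout soma. Its levels were 18.1, 21 and 25.8 TPM in wild-type and 6.67, 4.21 and 4.88 TPM in knockout CAD soma. N2A soma gave 26.7, 27.3 and 29 TPM in wild-type and 10.4, 6.71 and 5.44 TPM in knockout cells, so the means were 4.12-fold and 3.68-fold lower with a wide gap between genotypes. In neurites Dhx16-202 overlapped between genotypes in both lines, at 2.06 and 1.57 TPM in CAD and 3.73 and 2.16 TPM in N2A cells. The transcript has 101 motifs in 825 bases, 122 per kb, and only 139 of 141767 annotated transcripts (0.098%) are as dense. Slc35b3-206, another retained-intron form, also holds up to 26 motifs within 30 bases. It overlapped between genotypes in soma and neurites of both lines. Its soma means were 1.21 and 1.03 TPM in CAD and 1.07 and 0.52 TPM in N2A cells. Protein-coding Dhx16-201, with 8 motifs in 3351 bases, stood at 22.1 ± 5.13 and 16.1 ± 1.3 TPM in CAD soma with overlap and at 3.72 ± 0.181 and 6.07 ± 0.287 TPM (SD, n = 3) in CAD neurites without. In N2A soma it too was lower, at 27.3 ± 1.29 against 13.8 ± 0.854 TPM. When only protein-coding transcripts were counted, the LR difference of Dhx16 was 0.73 in CAD and 1.18 in N2A cells, close to 0.76 and 1.02 with all of them.

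Snrnp48 had 18.2, 15.6 and 17.4 CPM in wild-type and 23.9, 21.6 and 22.6 CPM in knockout CAD neurites, while CAD soma overlapped at 25 ± 0.685 and 23.6 ± 1.63 CPM (SD, n = 3). N2A soma was lower, with 26, 24.9 and 25 CPM against 21, 18 and 17, and N2A neurites were higher, with 13.3, 15.6 and 15 against 19.1, 17.5 and 20.4. By mean TPM its most abundant form in wild-type soma of the knockout experiments was a retained intron. In CAD soma the protein-coding Snrnp48-201 came close to it, with 5.32 TPM, 37.3% of the gene's TPM. Snrnp48-204, 6689 bases long with 54 motifs, held 55.4% ± 1.73 of the gene's TPM in wild-type and 44.7% ± 3.93 in knockout N2A soma. Its level was 5.73, 5.94 and 6.12 TPM in wild-type and 4.46, 3.69 and 3.44 TPM in knockout N2A soma, and 5.79 ± 1.05 and 4.32 ± 0.084 TPM in CAD soma. The N2A result of this gene rested on such forms: with protein-coding transcripts alone the LR difference was -0.05 in place of 0.82, because the soma change was then 0.265 (log2) in place of -0.44, whereas the CAD difference was 0.33 in place of 0.50. Length-scaled counts gave 0.41 in N2A and 0.24 in CAD cells. Snrnp48-204 made up 40.2% ± 2.04 of the gene's TPM in CAD soma with TDP-43 and 34.7% ± 0.796 without.

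**Figure D4:**
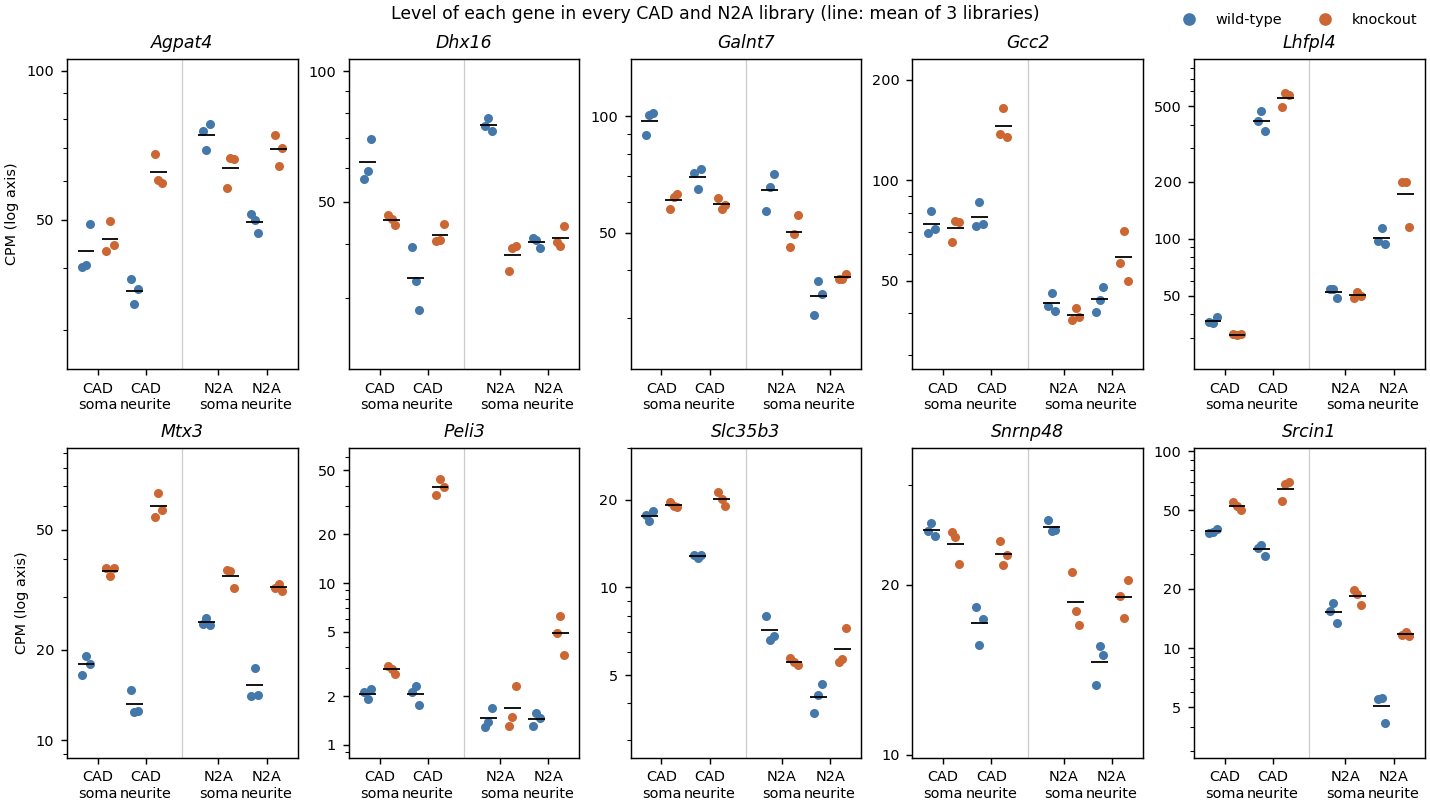
CPM (log axis) of each gene in every CAD and N2A library, by compartment and genotype, with a line at the mean of 3 libraries. Peli3 and Mtx3 show the widest gap between genotypes in CAD neurites, Dhx16 and Galnt7 the lower knockout soma.

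**Figure D5:**
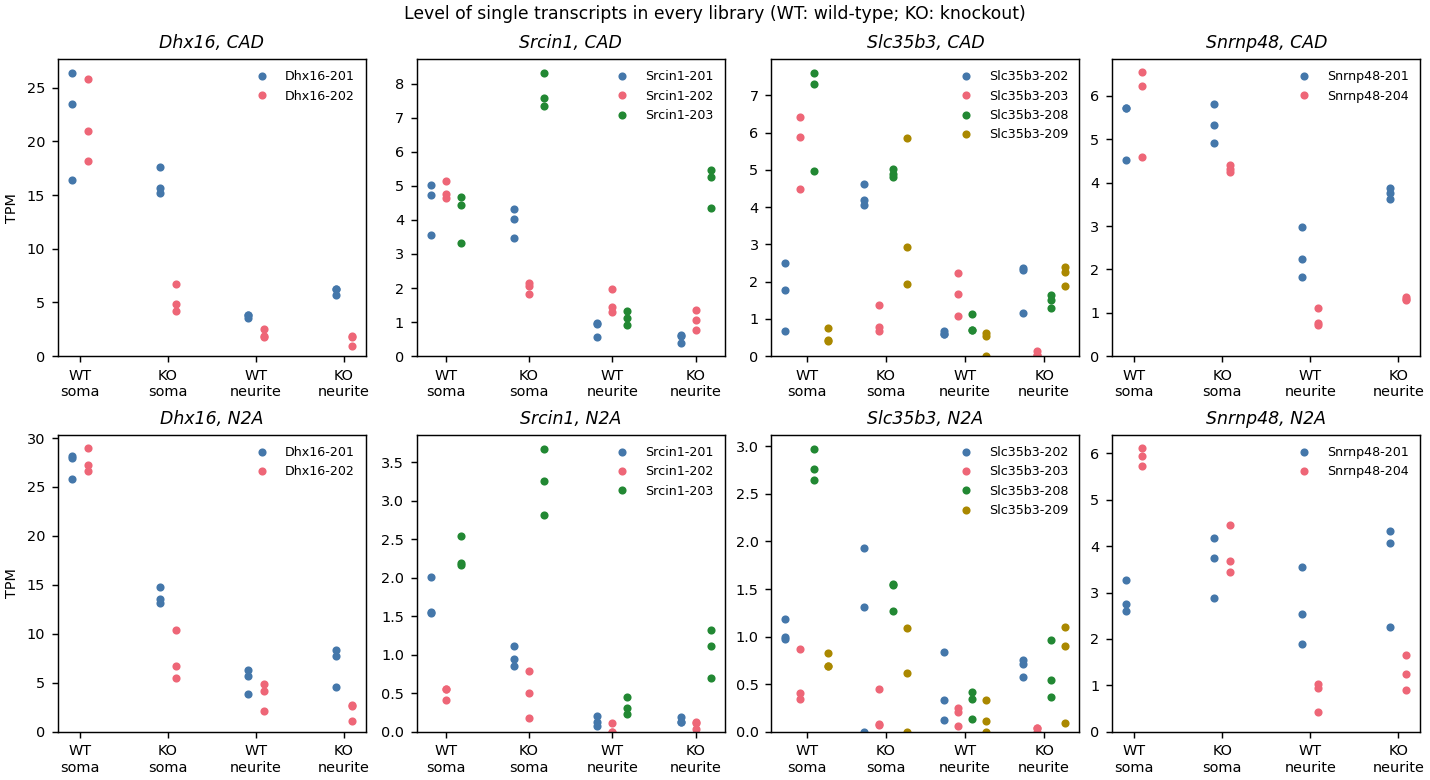
TPM of single transcripts of Dhx16, Srcin1, Slc35b3 and Snrnp48 in every wild-type (WT) and knockout (KO) library of CAD (top) and N2A cells (bottom), with a linear axis that differs between panels. The retained-intron forms Dhx16-202, Slc35b3-203 and Snrnp48-204 are lower in knockout CAD soma, and Srcin1-203 is higher in knockout soma and neurites of both lines.

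Related genes were examined to see whether the difference extended to families or partners. The 10 lists held 92 other genes, of which 83 were tested in CAD, 81 in N2A and 79 in the transgene cells, and edgeR called 0 of them in LR at an FDR of 0.01 in each. At an unadjusted p under 0.05 there were 11 in CAD cells (3 higher, 8 lower), 29 in N2A cells (6 higher, 23 lower) and 3 in the transgene cells (0 higher, 3 lower), and DESeq2 called 0, 14 and 0. Among all genes 10.5%, 31.2% and 4.34% had such a p, and DESeq2 called 1.81%, 23.3% and 0%. At an FDR of 0.05, the threshold of the 10, 0 list genes passed in CAD cells and 11 in N2A cells, of which Golga4 (0.47 ± 0.12, adjusted p = 0.0387 by edgeR) and Golgb1 (0.48 ± 0.11, 0.0319), golgins like Gcc2, were higher and 9 were lower. Among all genes 3.13% were higher and 5.33% lower at this threshold in N2A cells, and 0.404% and 0.554% in CAD cells. Other genes of the golgin list went the opposite way: Gcc1 (-0.39 ± 0.11, adjusted p = 0.0482 by edgeR) and Arl1 (-0.52 ± 0.14, 0.0407) were among the 9 lower. The median of the golgin list was 0.02 in N2A cells, so the list as a whole did not share the difference of Gcc2. In CAD cells Golga4 had 0.35 ± 0.12 and Golgb1 -0.25 ± 0.11. The median LR difference of the tested genes was -0.00 in CAD and -0.14 in N2A cells. The nearest relatives, chosen for their families after their values were seen, gave these differences in CAD cells: Peli1 had 0.05 ± 0.08 (SE), Mtx1 0.09 ± 0.13, Mtx2 -0.00 ± 0.11, Gcc1 0.01 ± 0.10 and Slc35b2, the other Golgi PAPS transporter, 0.10 ± 0.14. In N2A cells the values were -0.45 ± 0.13 for Peli1, -0.14 ± 0.14 for Mtx1, -0.62 ± 0.11 for Mtx2, -0.39 ± 0.11 for Gcc1 and 0.11 ± 0.11 for Slc35b2, with the lowest adjusted p of any list gene, 0.022, in Mtx2 (edgeR). Outer-membrane import genes were below 0 in N2A cells, with a median of -0.38 over 10 genes, against 0.57 for Mtx3 (0.27 with length-scaled counts), and the highest list median there was 0.13, over 12 GalNAc transferases and partners of Galnt7's family.

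The transgene cells are libraries that the choice of the genes did not use, so the 10 could be tested there. Q331K is a TDP-43 substitution found in amyotrophic lateral sclerosis. No gene of 13940 was called in LR between Q331K and wild-type transgene cells at an FDR of 0.01 (percent called 0 in either direction) by edgeR or DESeq2, with 605 at an unadjusted p under 0.05. None of the 10 RNAs was among the latter, and their lowest adjusted p was 0.9986. Their LR difference had a median of -0.01 and a range of -0.23 in Agpat4 to 0.58 in Peli3. All 10 of the 95% intervals held 0. The widest was that of Peli3, -0.39 to 1.55. Its level was 1.04 ± 0.21 CPM in neurites with the wild-type transgene and 1.4 ± 0.291 CPM (SD, n = 3) with Q331K. Agpat4 had the interval with the lowest upper bound, -0.52 to 0.05, and Mtx3 spanned -0.39 to 0.38.

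Compartment by compartment, edgeR and DESeq2 called 0 of the 10 between the transgenes at an FDR of 0.01 in soma or in neurites, although DESeq2 gave an adjusted p in neurites for only 3 of them. At an unadjusted p under 0.05 there were 2 in soma, Srcin1 and Slc35b3, against 7.14% of all genes, and 1 in neurites, Agpat4, against 9.84%. DESeq2 called 0.355% of all genes in neurites. Srcin1 soma held 18.6, 20.6 and 16.4 CPM with the wild-type transgene and 26.2, 22.9 and 22.5 CPM with Q331K, without overlap, a log2 difference of 0.36 ± 0.11 (SE) with an edgeR adjusted p of 0.44. Agpat4 neurites held 33.2, 30 and 27 CPM with the wild-type transgene and 21.5, 24.2 and 22.6 CPM with Q331K, also without overlap, a difference of -0.40 ± 0.10 with an adjusted p of 0.232. Libraries also failed to overlap for Agpat4 and Lhfpl4 in soma, lower with Q331K (2 of 10, against 6.79% of all genes; higher 1 of 10, against 7.3%), and for Srcin1 in neurites, higher (1 of 10, against 6.99%; lower 1 of 10, against 6.83%). Tardbp itself overlapped, at 770 ± 48.9 and 758 ± 42.9 CPM in soma. The share of Dhx16-202 in the TPM of its gene overlapped as well, at 20.9% ± 6.52 with the wild-type transgene and 28.3% ± 11.6 with Q331K in soma (exact permutation test, two-sided, p = 0.5, where 3 against 3 cannot go below 0.1). Some other shares did not overlap, such as Mtx3-201 in soma, at 57.7% and 68.2%, and Gcc2-201 in neurites, at 84.8% and 69.8%. Each had p = 0.1 by the same permutation test and overlapped in the other compartment.

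Cells with the wild-type transgene also gave the neurite enrichment of each RNA in a separate set of libraries with TDP-43 present. In this test edgeR called 14.9% of genes enriched in neurites and 12.6% depleted at an FDR of 0.01, and 3 of the 10. Lhfpl4 was enriched, with 264, 406 and 320 CPM in neurites and 34.1, 34.4 and 30.8 CPM in soma, an LR of 3.32 ± 0.12 (SE) and an adjusted p of 1.14e-11. Galnt7 was depleted, with an LR of -0.58 ± 0.08 and an adjusted p of 3.38e-05, and so was Agpat4, with -0.56 ± 0.09 and 0.00017. The other 7 did not pass, with Dhx16, Peli3 and Srcin1 at adjusted p of 0.0197, 0.0337 and 0.0196. Peli3 had an LR of -0.92 ± 0.33 there. Snrnp48 with -0.02 ± 0.11 and Gcc2 with 0.07 ± 0.08 were the most evenly spread.

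The baseline level in the soma differed between the lines for 6 of the 10 by edgeR at an FDR of 0.01, where 22.8% of 18034 genes were higher and 28.7% lower in wild-type N2A than in wild-type CAD soma. Agpat4 was higher in N2A cells by 0.61 ± 0.09 (log2, SE; adjusted p = 0.000204) and Lhfpl4 by 0.34 ± 0.08 (adjusted p = 0.00268). Srcin1 at -1.53 ± 0.10 (adjusted p = 2.2e-07), Slc35b3 at -1.47 ± 0.10 (5.63e-07), Gcc2 at -0.96 ± 0.09 (3.4e-06) and Galnt7 at -0.77 ± 0.10 (4.33e-05) were lower in N2A cells. Dhx16, Mtx3, Peli3 and Snrnp48 did not pass, with values between -0.68 and 0.30. Line and experiment cannot be told apart in this comparison, and the call of Lhfpl4 was lost when replicates numbered 1 or 2 were left out (adjusted p of 0.0168 and 0.0585). On the soma level alone, Srcin1 and Slc35b3 were thus 2.89-fold and 2.78-fold lower in N2A than in CAD cells, while their knockout LR differences were 0.95 and 0.90 in N2A against 0.61 and 0.53 in CAD cells.

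Over the 24 CAD and N2A libraries, the genes whose level followed the mean pattern of the 10 most closely were Fam219a (Pearson's r = 0.876), Fam160b2 (0.871), Spock2 (0.829), Ccnl1 (0.812) and Ccdc47 (0.81), out of 16190 genes compared. The first 3 are in the reporter library. These points share libraries, depth and compartment, and the correlation is only a description. Each RNA against the mean of the other 9 gave 0.91 for Agpat4 and 0.82 for Slc35b3 at one end and 0.02 for Galnt7 and -0.12 for Lhfpl4 at the other, so the last pair had little of the common pattern. The LR differences of Fam219a were 2.76 ± 0.12 (SE) in CAD and 0.98 ± 0.11 in N2A cells, and those of Ccdc47 0.29 ± 0.11 and 0.54 ± 0.14.

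Against the strongest RNAs of the reporter library the differences of the 10 were modest, apart from Peli3. Diras1 had 5.95 ± 0.15 in CAD and 3.30 ± 0.27 (SE) in N2A cells, Wasf3 4.92 ± 0.13 and 3.53 ± 0.26, and Ksr2 4.81 ± 0.18 and 4.61 ± 0.32. Peli3 with 3.77 ± 0.18 came near them in CAD cells but had 1.54 ± 0.38 in N2A cells. Between the transgenes these 3 RNAs had 0.38 ± 0.23, 0.39 ± 0.19 and -0.02 ± 0.17, each with an edgeR adjusted p of 0.9986. Their 3′ UTRs held 25.1 motifs per kb in Diras1, 5.51 in Ksr2 and 5.25 in Wasf3, against 77.7 in Agpat4 and 13.6 in Peli3.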

How the data were processed

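The deposited files give, per transcript, the authors' Salmon estimated counts, TPM and effective lengths, made from cutadapt-trimmed reads against mm10 transcripts. The transgene libraries used an index with fewer transcripts. Transcripts were summed to genes with GENCODE vM21 (GRCm38) and counts rounded; at most 0.129% of reads had no gene. edgeR 4.0.16 in R 4.3.3 (TMM, filterByExpr, quasi-likelihood F-test, Benjamini-Hochberg over all tested genes, FDR 0.01) was fitted to the 4 groups of each experiment, and to the 6 wild-type soma libraries for the comparison of lines. LR differences are interaction terms. DESeq2 1.42.0, other scalings, filters and counting, a replicate block and leaving out replicates were alternatives. Transcript-level values and the protein-coding-only counts were added after seeing the data. The edgeR contrasts for LR differences and for the comparison of lines were tested on simulated counts.

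The members and lists were chosen with earlier results of these data known. Named were all 10 members, any list gene past the FDR, the 5 most similar genes, 3 reporter-library RNAs and Tardbp. Genes at the FDR threshold and near relatives of members were named after their values were seen. The likeness is Pearson's r over log2 CPM, centred and scaled within each line. Sample groups follow the labels. The reporter, SLAM, in vitro binding and human libraries were not used here.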

Additional observations from a re-analysis of the deposited data

Results flagged for a closer look

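Slc35b3 in soma moved in opposite directions in the knockouts of the 2 lines. Every CAD knockout library was above every wild-type library, with a log2 change of 0.119, and every N2A knockout library was below, with -0.359. Galnt7 in neurites did so too, with -0.235 in CAD and 0.162 in N2A cells. The difference between the lines was not tested in either case, and line and experiment cannot be told apart. The Slc35b3 change in CAD soma was -0.17 with length-scaled counts and 0.65 with protein-coding transcripts only.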

How the results depend on the processing

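The members' LR differences kept their sign under every setting tried in CAD cells, and in N2A cells with the exception of Snrnp48, which with protein-coding transcripts only went from 0.82 to -0.0489, its soma change going to 0.265. Among the values of single genes, 901 kept their direction and their size or call, 57 moved, 13 gained a call, 3 lost one and 2 reversed. Calls of the 10 between the transgenes stayed at 0 in every setting. The depth of the transgene libraries limits Peli3.

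Counts of genes called in LR moved most. In CAD cells 75 became 166 at FDR 0.05, 223 with DESeq2, 280 without a filter and 18 to 84 without one replicate, where the share higher went from 52% to 28.57% without replicate 3 and 86% and 88.89% without replicates 1 and 2; DESeq2 (34.98%) and no filter (41.79%) also lowered it. In N2A cells 18 became 1515 at FDR 0.05 (36.96% higher, against 88.89%), 145 with upper-quartile scaling, 1909 with DESeq2 (18.02%), 922 without a filter (51.3%), 132 with 10 counts in every library, 181 with protein-coding transcripts only and 3 to 7 without one replicate. List genes called in N2A cells went from 0 to 1 with upper-quartile scaling, length-scaled counts or protein-coding transcripts only, 2 with 10 counts in every library, 5 without a filter and 14 with DESeq2. Upper-quartile scaling moved the median of all genes by 0.12 for the N2A LR difference and by 0.15 between the lines.

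Between the transgenes, counts of 0 became 53, 141 and 103 for LR, soma and neurites without a filter, 0 to 1 for each without one replicate, 1 for LR and 2 for neurites with protein-coding transcripts only, and 14 for neurites with DESeq2. Members called in LR with the wild-type transgene went from 3 to 6 at FDR 0.05 and 3 to 5 without one replicate, and genes called from 3837 to 1750 to 3731. Genes called between the lines went from 9291 to 5391 to 9143, with 54.5% higher under upper-quartile scaling against 44.25%.

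The members' median LR difference was 0.51 to 0.75 without one replicate in CAD cells and 0.65 with length-scaled counts in N2A cells. The median soma change was -0.25 (TPM ratio) and 0.15 (protein-coding only) in CAD cells, against 0.02, and -0.34 (TPM ratio) in N2A cells; the median neurite change was 0.54 (length-scaled) and 0.92 (protein-coding only) in CAD and 0.69 (protein-coding only) in N2A cells. Between the lines the median of -0.42 became -0.26 (upper-quartile), -0.55 (no filter), -0.16 (length-scaled) and -0.53 to -0.39 without one replicate.

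The labels do not say that replicate numbers pair libraries, and correlations of same-numbered deviations ranged from -0.162 to 0.491. A replicate block gave 71 calls in CAD and 25 in N2A cells, 0 between the transgenes, 3893 with the wild-type transgene and 11355 between the lines, where members called went from 6 to 7 with Mtx3; it changed no other call of the 10.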
